A study of Sus scrofa with 14 samples.

Results

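The comparison described here sets meniscus cells expanded in monolayer to passage 3 (P3) against native articular cartilage, by bulk RNA sequencing of pig knees. Its members are 8 of the 14 libraries of the series, chosen by their sample labels: 5 libraries of P3 meniscus cells, of which 3 came from the inner zone of the meniscus (numbered 147, 148 and 149) and 2 from the outer zone (147 and 148), and 3 libraries of cartilage (numbered 1 to 3). The other 6 libraries are inner and outer zone meniscus explants (n = 3 each), whose levels are given only beside those of the P3 cells. The comparison asks which genes set expanded meniscus cells apart from chondrocytes in their own matrix, and which genes both express at like levels.

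All animals were skeletally mature female pigs, aged 2 to 3 years, from an abattoir. P3 cells had been freed from minced meniscus with pronase and then collagenase, and were passaged at 90% confluence. Cartilage was taken at the full thickness of the femoral joint surface and held in culture for 3 days in the same medium before extraction. The cells of the inner and the outer zone share the numbers 147 and 148 and so may share animals, the cells were not matched by donor to the tissues, and which animal gave which cartilage library is not stated. Tissue of origin, time in monolayer and the way RNA was extracted (cartilage was pulverized in TRIzol, cells were lysed for a column) all differ between the groups, so their parts in a difference cannot be told apart.

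Chondrocytes keep a hyaline matrix, in which type II collagen fibrils hold the swelling pressure of aggrecan. In monolayer, chondrocytes and meniscus fibrochondrocytes are known to spread, build actin stress fibres, divide and exchange type II for type I collagen, a change usually called dedifferentiation. Meniscus cells share features of chondrocytes and of fibroblasts, and the outer zone of the meniscus is the fibrous and vascular one.

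P3 libraries held 31523186 to 43304412 reads on genes and cartilage libraries 25654735 to 26828472. Of 15707 genes tested, 5545 (35.3%) were called different by edgeR's quasi-likelihood test, with adjusted p below 0.01 and a difference above 1 on the log2 scale in either direction. Of these, 2841 were higher in P3 cells (18.1% of genes tested) and 2704 lower (17.2%), and the median log2 fold change of all genes tested was 0.055. For 9732 genes (62.0%) the 5 P3 values and the 3 cartilage values did not overlap. Levels are counts per 1000000 reads of the scaled library size (CPM), given as mean ± SD where not per library, fold changes are log2 of P3 cells over cartilage ± SE, and adjusted p is from edgeR with Benjamini-Hochberg adjustment across the genes tested. Where 5 P3 values are listed, they are those of inner zone cells 147, 148 and 149 followed by outer zone cells 147 and 148, and 3 cartilage values follow the order 1 to 3. Where a gene is said to rise or fall by a value, that value is on the log2 scale. A gene was counted as shared where the 95% interval of its log2 fold change lay within -1 to 1 and its mean was at least 10 CPM in both groups, which 3775 genes met (24.0% of those tested, and 54.8% of the 6891 genes at 10 CPM or more in both groups). Counts of called and of shared members of the gene lists are to be read beside these shares of all genes tested, 35.3% and 24.0%. In bulk RNA, fewer cells of a type and less RNA per cell cannot be told apart.

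Every cartilage library held the type II collagen transcript COL2A1 at 20440 to 67580 CPM and every P3 library the type I collagen transcript COL1A1 at 71740 to 110500 CPM. Each is a single marker, and not all others separated the groups. Of the fibroblast markers THY1 was shared and PDGFRA was not called, and the chondrocyte marker CNMD was not called either. Markers of cells that either sample might hold besides its own differed from list to list. The 9 endothelial markers summed to 4.65 to 15.2 CPM in P3 cells and to 3.44 to 4.95 CPM in cartilage, most of it PECAM1, while CDH5, KDR, TEK and CD93 had no read in cartilage. The 9 macrophage and osteoclast markers summed to 15.8 to 18.1 CPM in P3 cells and to 50.1 to 73.3 CPM in cartilage, and CD14, which other cells also express, made up most of both, while PTPRC, which all leukocytes carry, had no read in P3 cells and TYROBP none in cartilage. The 6 pericyte and vascular smooth muscle markers summed to 99.0 to 199.4 CPM in P3 cells and to 864 to 1032 CPM in cartilage, where CSPG4, which other cells also express, made up most, while 3 other members were under 1.5 CPM in all 8 libraries. The 5 bone cell markers tested summed to 2.91 to 19.5 CPM in P3 cells and to 10.8 to 235 CPM in cartilage. Only 1 of them was called, lower in P3 cells, and their log2 fold changes ran from -9.21 to 1.99. IBSP, a bone sialoprotein, differed among the cartilage libraries, with 0.0950, 0.185, 0.0715, 0.0808 and 0.195 CPM in P3 cells, against 8.51, 16.2 and 211 CPM in cartilage. The part of such other cells in the results was not tested. Without cartilage 3, 5039 genes were called, of which 4888 were among the 5545.

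**Figure D1:**
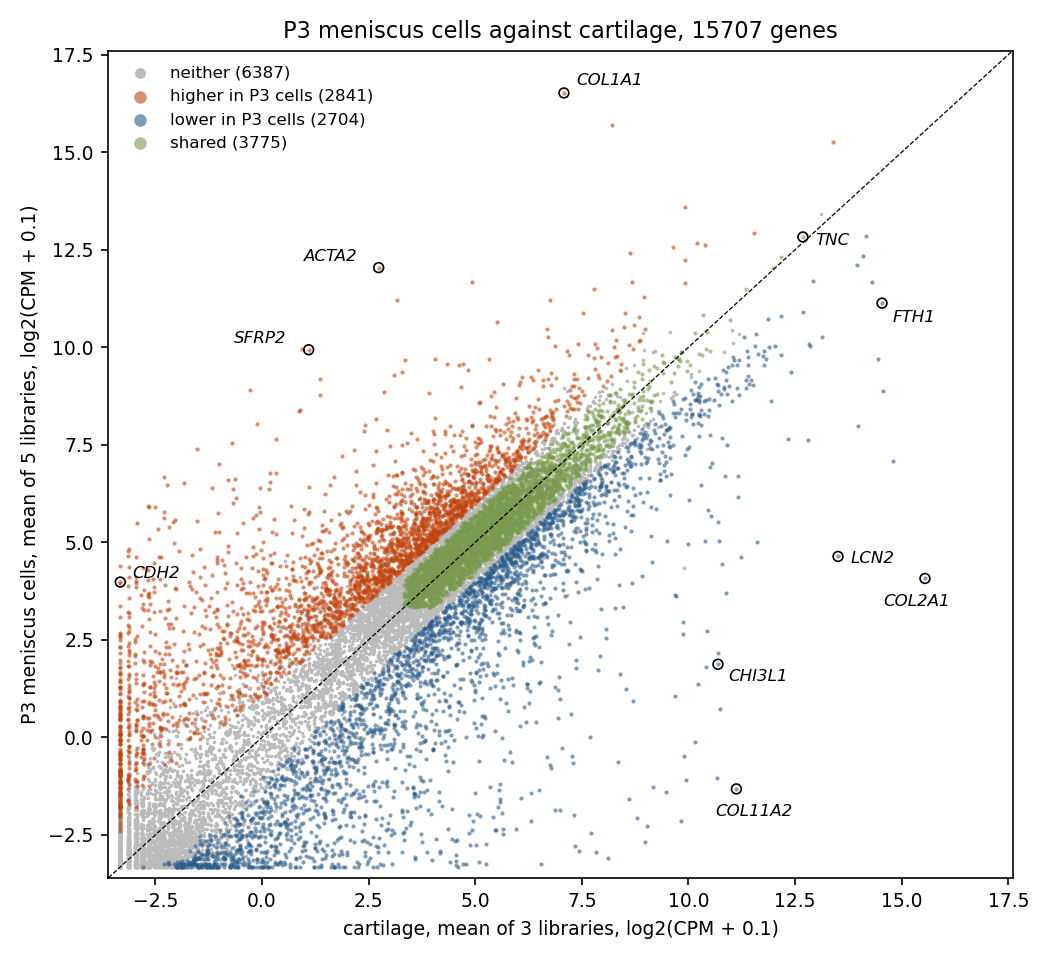
Mean level of each tested gene in P3 cells (vertical axis, log2 of CPM plus 0.1, n = 5) against cartilage (horizontal axis, same scale, n = 3). Colours mark the 2841 genes called higher and the 2704 called lower in P3 cells and the 3775 shared genes along the diagonal, and circles mark 10 genes described in the text, among them COL1A1 far above and COL2A1 far below the diagonal.

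The largest changes were ranked among called genes with a symbol, a mean of 10 CPM or more in the higher group and no overlap. Genes so ranked were absent or nearly so in the other group, which follows largely from the ranking. RTN4RL2, a homologue of the Nogo receptor, had 17.7, 19.3, 13.7, 36.6 and 17.8 CPM in P3 cells, against 0, 0 and 0 CPM in cartilage, where no read was found. With 3 reads over the cartilage group as the floor, this is at least 469-fold higher in P3 cells. CDH2 (N-cadherin), a cell adhesion protein of mesenchymal condensations, had 19.7, 11.3, 21.9, 9.78 and 15.9 CPM in P3 cells, against 0, 0 and 0 CPM in cartilage, at least 353-fold higher. MFAP5, a microfibril protein, had 3.10, 3.99, 6.91, 49.8 and 13.6 CPM in P3 cells, against 0, 0 and 0 CPM in cartilage, and RHCG, an ammonium transporter, 2.41, 3.65, 21.7, 8.06 and 15.5 CPM in P3 cells, against 0, 0 and 0 CPM in cartilage. MFAP5 was highest in outer zone cells 147 and RHCG in inner zone cells 149, while cartilage was at 0 throughout. The costimulatory receptor CD86 (48.6, 53.2, 49.8, 68.9 and 80.8 CPM in P3 cells, against 0.0409, 0.135 and 0 CPM in cartilage) and the membrane-anchored netrin NTNG2 (79.4, 71.5, 43.0, 60.6 and 52.6 CPM in P3 cells, against 0.0818, 0.0902 and 0 CPM in cartilage) were also among the 10 largest increases, with RBPMS, SLC1A6, CALHM5 and GUCY1B3. In the other direction, TMEM171 had no read in P3 cells and 23.3, 20.9 and 27.5 CPM in cartilage, at least 1590-fold higher in cartilage. PROM2, a membrane protein of the prominin family, had 1 read in all P3 libraries together and 108, 64.3 and 106 CPM in cartilage, a ratio of cartilage to P3 cells of 18630 with a 95% counting interval of 3342 to 735900. C1QTNF8, a secreted protein with a complement C1q-like domain, had 3 reads in all P3 cells and 189, 306 and 337 CPM in cartilage, a ratio of 18220 (6235 to 88370). The other genes among the 10 largest decreases were COL11A2, MATN1, CLEC3A, LBP, SERPINA1, KY and RGS5, which include structural parts of the cartilage matrix and secreted proteins of the acute phase. Altogether, 165 genes called higher had no read in cartilage and 81 genes called lower had no read in P3 cells.

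The collagens of hyaline cartilage were far lower in P3 cells, with a single exception. Of 8 members of the cartilage collagen list, 7 were called lower and 1 higher, and the median log2 fold change was -8.14. COL2A1, the fibril-forming chain of type II collagen, had 29.1, 34.8, 7.60, 6.76 and 5.35 CPM in P3 cells, against 20440, 55450 and 67580 CPM in cartilage (log2 fold change -11.48 ± 1.14, adjusted p = 1.3e-06). The groups were far apart in every library, and the 2 highest P3 levels were those of inner zone cells. COL9A1, COL9A2 and COL9A3 make up type IX collagen, which decorates the type II fibril. COL9A1 had 0.0633, 0.277, 0.238, 0.0808 and 0.0433 CPM in P3 cells, against 285, 427 and 618 CPM in cartilage (log2 fold change -11.55 ± 1.14, adjusted p = 1.2e-06), and COL9A2 and COL9A3 fell by 7.73 and 8.54 on the log2 scale. COL11A2, a chain of the type XI collagen inside those fibrils, had 0.253, 0.508, 0.238, 0.243 and 0.260 CPM in P3 cells, against 1654, 1626 and 3416 CPM in cartilage (log2 fold change -12.83 ± 0.84, adjusted p = 4.3e-08). COL27A1, another fibrillar chain of cartilage, kept more of its level, with 19.1 ± 3.26 CPM in P3 cells and 182 ± 68.5 CPM in cartilage (log2 fold change -3.25 ± 0.31, adjusted p = 9.9e-07). COL10A1, the collagen of hypertrophic chondrocytes, was low everywhere, with 0, 0.0231, 0.0715, 0.108 and 0.130 CPM in P3 cells, against 1.19, 0.181 and 8.82 CPM in cartilage. Its call (log2 fold change -5.55 ± 1.17, adjusted p = 9.0e-04) was lost without cartilage 3 (adjusted p = 0.0266) and with outer zone cells alone (0.0246). The exception was COL11A1, the other main chain of type XI collagen, which pairs with type V chains in fibrous tissue. It had 4527, 4656, 3428, 1600 and 1728 CPM in P3 cells, against 607, 1071 and 1213 CPM in cartilage (log2 fold change 1.73 ± 0.49, adjusted p = 0.00664). Inner zone cells had the 3 highest values, and the call was lost with outer zone cells alone (log2 fold change 0.79, adjusted p = 0.160) and on leaving out any 1 cartilage library (adjusted p = 0.0136 to 0.0356) or any 1 inner zone cell library (0.0120 to 0.0150). In meniscus tissue COL2A1 averaged 9289 CPM in the inner and 1902 CPM in the outer zone, both above every P3 library.

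**Figure D2:**
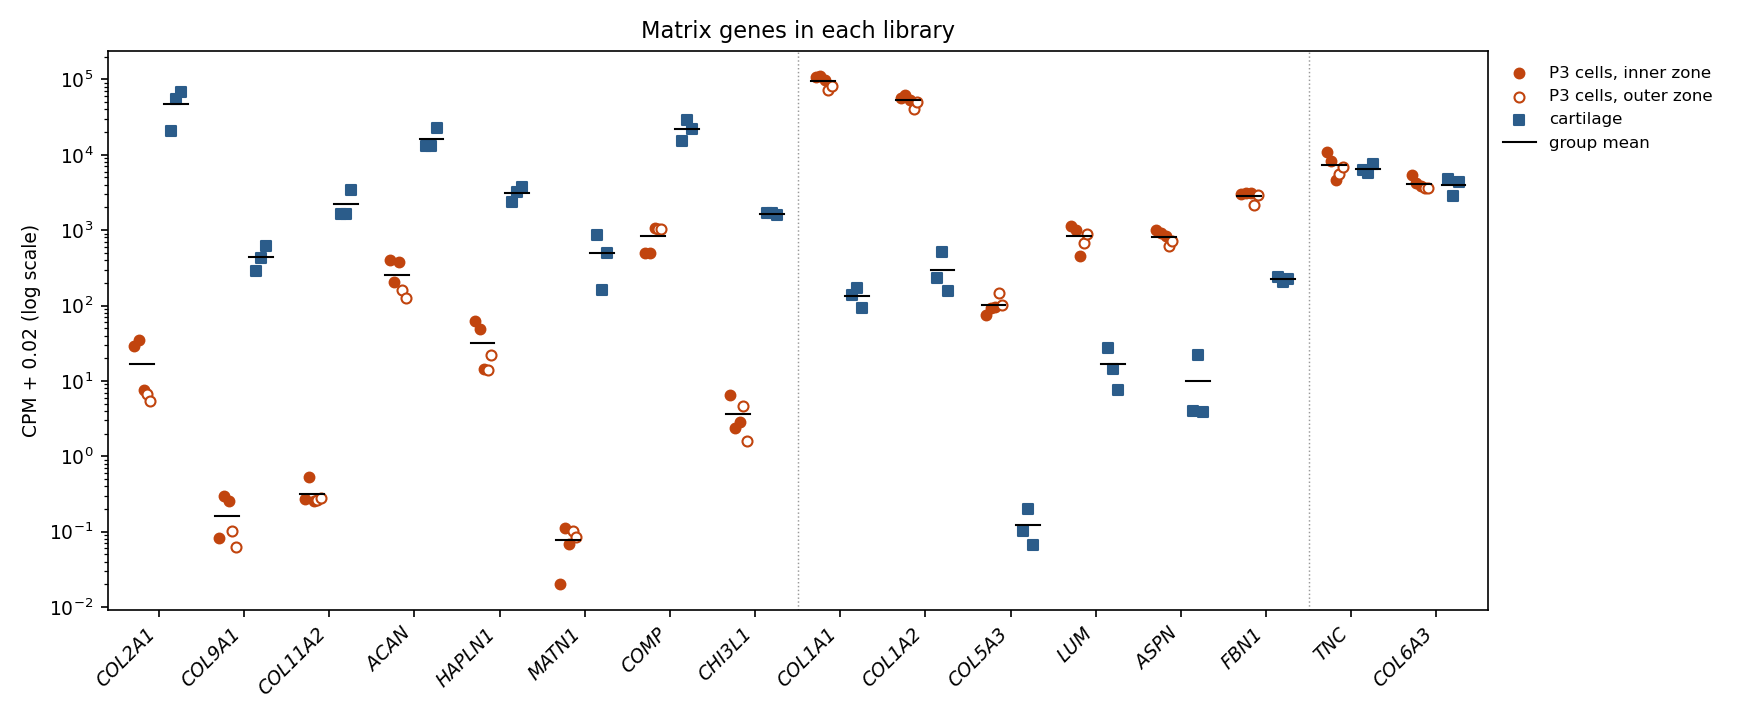
Level of 16 matrix genes in each library (CPM plus 0.02, log axis), with P3 cells left of cartilage for each gene and bars at the group means. Cartilage genes from COL2A1 to CHI3L1 lie far lower in all P3 libraries, fibrous tissue genes from COL1A1 to FBN1 lie higher, and TNC and COL6A3 overlap.

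Proteoglycans moved in both directions. Aggrecan itself, ACAN, had 401, 207, 375, 159.9 and 125 CPM in P3 cells, against 13010, 12970 and 22600 CPM in cartilage (log2 fold change -6.00 ± 0.53, adjusted p = 4.9e-07), and the link protein HAPLN1, which ties aggrecan to hyaluronan, had 61.8, 48.6, 14.2, 13.9 and 21.7 CPM in P3 cells, against 2332, 3239 and 3775 CPM in cartilage (log2 fold change -6.60 ± 0.66, adjusted p = 1.4e-06). Both remained readily detected in every P3 library. Of the 8 genes tested in the list of aggrecan, link protein and hyaluronan genes 3 were lower and 3 higher. The versican gene VCAN, which codes for the large proteoglycan of loose and fibrous tissue, had 371, 270.0, 508, 559.7 and 369 CPM in P3 cells, against 39.1, 105 and 41.4 CPM in cartilage (log2 fold change 2.75 ± 0.58, adjusted p = 9.5e-04), and the hyaluronan receptor CD44 had 291, 244, 151, 201 and 219 CPM in P3 cells, against 9.04, 28.6 and 11 CPM in cartilage (log2 fold change 3.77 ± 0.44, adjusted p = 5.2e-06). Among 13 small leucine-rich proteoglycans, which bind collagen fibrils and set their width, 6 were lower and 3 higher. Decorin (DCN), fibromodulin (FMOD), biglycan (BGN) and PRELP fell by 3.06, 2.65, 1.85 and 2.73 on the log2 scale. FMOD had 3400, 3191, 3233, 3676 and 2682 CPM in P3 cells, against 15000, 19760 and 26340 CPM in cartilage. CHAD and EPYC, which belong to cartilage, fell further (log2 fold changes -5.17 ± 0.48 and -9.04 ± 0.96). Asporin (ASPN) had 989.8, 905, 835, 612 and 714 CPM in P3 cells, against 3.93, 22.4 and 3.87 CPM in cartilage (log2 fold change 6.34 ± 0.81, adjusted p = 1.3e-05), and lumican (LUM), which is known from cornea, skin and tendon, had 1138, 1015, 449, 679 and 896 CPM in P3 cells, against 27.5, 14.5 and 7.55 CPM in cartilage (log2 fold change 5.66 ± 0.73, adjusted p = 1.3e-05). LUM averaged 686 CPM in inner and 1292 CPM in outer zone tissue, above every cartilage library. ASPN averaged 4.23 and 23.3 CPM in these tissues, far below all P3 libraries. The gene counted in this list for PODN, podocan, carries the symbol SCP2 in the deposited counts, so its identity is uncertain. It lay within the bounds of a shared gene.

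Other secreted proteins of cartilage were lower in P3 cells or not called. Of 20 members 16 were lower, none was higher, and the median log2 fold change was -5.10. MATN1, a matrilin that bridges matrix filaments, had 0, 0.0923, 0.0477, 0.0808 and 0.0650 CPM in P3 cells, against 851, 161 and 504 CPM in cartilage (log2 fold change -12.96 ± 1.75, adjusted p = 2.1e-05). CHI3L1, a chitinase-like protein secreted by chondrocytes, had 6.46, 2.38, 2.81, 4.61 and 1.58 CPM in P3 cells, against 1667, 1686 and 1608 CPM in cartilage (log2 fold change -8.87 ± 0.52, adjusted p = 2.2e-08). COMP, a pentameric glycoprotein that binds collagen in cartilage and tendon, was still well detected, with 497, 495, 1082, 1037 and 1031 CPM in P3 cells, against 15440, 29050 and 22010 CPM in cartilage (log2 fold change -4.74 ± 0.35, adjusted p = 1.1e-07). CILP and CILP2, proteins of the cartilage intermediate layer, differed in how much they kept: CILP had 2.31, 1.62, 1.17, 1.13 and 1.60 CPM in P3 cells, against 919, 2107 and 2104 CPM in cartilage, whereas CILP2 had 162, 141, 87.3, 40.8 and 90.9 CPM in P3 cells, against 1657, 2730 and 2439 CPM in cartilage. Their log2 fold changes were -10.10 ± 0.60 and -4.45 ± 0.41. SNORC, SCRG1, MIA and CLEC3A, all known from chondrocytes, each fell to under 1 CPM in every P3 library, against 709, 881 and 1383 CPM in cartilage for SNORC. MGP and SPP1, regulators of mineral deposition, fell by 3.52 and 5.19 on the log2 scale. ABI3BP had 30.7 ± 14 CPM in P3 cells and 1013 ± 194 CPM in cartilage, but meniscus tissue was also low, at 41.6 CPM in the inner and 72.4 CPM in the outer zone. The 4 members not called were MATN2 (adjusted p = 0.0107), UCMA (0.0265), CNMD and CHI3L2, of which CNMD and CHI3L2 were under 0.3 CPM in all 8 libraries. MATN2 was called lower without inner zone cells 147 (log2 fold change -1.08, adjusted p = 0.00121).

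Enzymes that build chondroitin sulfate moved in both directions. Of 22 members 7 were lower and 2 higher (40.9% called, beside 35.3% of all genes tested), and 7 met the bounds of a shared gene, with a median log2 fold change of -0.24. The largest decrease was that of SLC26A2, the sulfate transporter whose loss causes chondrodysplasia, with 107, 110.2, 104, 112 and 103 CPM in P3 cells, against 824, 513 and 591 CPM in cartilage (log2 fold change -2.58 ± 0.32, adjusted p = 1.0e-05). XYLT1, the xylosyltransferase that starts the chain, fell by 2.24. The chain polymerases CHSY1 (54.8 to 74.0 CPM in P3 cells and 42.6 to 55.0 CPM in cartilage) and CHSY3 (32.7 to 54.3 CPM in P3 cells and 38.0 to 54.0 CPM in cartilage) and the sulfotransferase CHST3 (47.4 to 67.9 CPM in P3 cells and 52.9 to 69.9 CPM in cartilage) were among the shared genes, as was UGDH, which makes the sugar precursor.

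Transcription factors of chondrocytes were mostly lower in P3 cells. Of 17 members 13 were lower and 2 higher (median log2 fold change -1.39). SOX9, the master regulator of COL2A1 and ACAN, had 51.9, 50.2, 55.8, 25.9 and 41.4 CPM in P3 cells, against 174, 151 and 242 CPM in cartilage (log2 fold change -2.07 ± 0.34, adjusted p = 1.3e-04). Its partners SOX5 and SOX6 bind the same enhancers. SOX5 had 8.83, 7.50, 4.96, 6.39 and 4.51 CPM in P3 cells, against 66.2, 54.5 and 73.0 CPM in cartilage (log2 fold change -3.33 ± 0.24, adjusted p = 8.0e-08), and SOX6 had 18.4, 17.5, 15.7, 14.2 and 13.2 CPM in P3 cells, against 37.0, 41.9 and 45.3 CPM in cartilage (log2 fold change -1.39 ± 0.12, adjusted p = 5.2e-07). All 3 genes were still detected in every P3 library, below every cartilage library. NKX3-2, a homeobox factor of the chondrocyte lineage, had 0.845 to 1.29 CPM in P3 cells and 14.9 to 22.6 CPM in cartilage. FOXA3, a forkhead factor, had 0.130 to 0.792 CPM in P3 cells and 15.2 to 24.8 CPM in cartilage. FOXC1, FOXC2, SOX8, TRPS1 and MEF2C were called lower as well. The 2 members called higher were RUNX2, the regulator of osteoblasts and hypertrophy, with 3.45, 4.50, 7.01, 9.38 and 8.32 CPM in P3 cells, against 0.327, 0.316 and 0.613 CPM in cartilage (log2 fold change 3.96 ± 0.91, adjusted p = 0.00178), and ARID5B, a chromatin cofactor, with 158, 162, 183, 214 and 199 CPM in P3 cells, against 21.9, 16.5 and 10.6 CPM in cartilage (log2 fold change 3.49 ± 0.29, adjusted p = 2.5e-07). The call of RUNX2 was lost without cartilage 1 (adjusted p = 0.0103) and without cartilage 2 (0.0112), which left 1 member called higher. RUNX1 was shared.

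Transcription factors of fibroblasts and tendon moved mostly the other way. Of 19 members 11 were higher, 3 lower and 5 not called (median log2 fold change 1.51). PRRX1, a homeobox factor of limb mesenchyme and fibroblasts, had 1372, 1361, 1373, 1331 and 1616 CPM in P3 cells, against 89.2, 123 and 96.8 CPM in cartilage (log2 fold change 3.77 ± 0.19, adjusted p = 8.6e-09). The 5 P3 libraries differed little among themselves, and meniscus tissue lay between, with 472 CPM in the inner and 665 CPM in the outer zone. ZEB2, a repressor of epithelial genes, had 99.4, 106, 94.1, 109.8 and 103 CPM in P3 cells, against 4.33, 3.79 and 1.27 CPM in cartilage (log2 fold change 5.02 ± 0.49, adjusted p = 1.0e-06), and TWIST1 had 39.5, 28.1, 31.5, 32.9 and 31.6 CPM in P3 cells, against 9.12, 5.41 and 5.38 CPM in cartilage (log2 fold change 2.30 ± 0.25, adjusted p = 2.9e-06). SCX, the tendon factor scleraxis, had 12.5, 13.7, 12, 11.4 and 9.15 CPM in P3 cells, against 1.76, 1.90 and 0.849 CPM in cartilage (log2 fold change 2.96 ± 0.34, adjusted p = 4.5e-06), and MKX, another tendon factor, rose by 1.07 on the log2 scale. MKX was not called with outer zone cells alone (log2 fold change 0.88), without cartilage 1 (0.90) or without inner zone cells 147 (0.99). TCF21, a factor of visceral and cardiac mesenchyme, had 3.96, 3.97, 3.41, 3.04 and 3.88 CPM in P3 cells and no read in cartilage, at least 82.7-fold higher. The 3 lower members were SNAI2 (72.9 ± 17.6 CPM in P3 cells and 332 ± 71.8 CPM in cartilage), TBX15 and OSR2. PRRX2 and TBX18 were shared.

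The collagens of fibrous tissue made up a large share of the P3 reads. Of 13 tested members 10 were higher and none lower (median log2 fold change 2.31), and the list summed to 175800 to 245400 CPM in P3 cells, against 15670 to 26800 CPM in cartilage. COL1A1 had 107900, 110500, 97320, 71740 and 82000 CPM in P3 cells, against 139, 173 and 93.4 CPM in cartilage (log2 fold change 9.44 ± 0.86, adjusted p = 6.1e-07), and COL1A2, its partner chain in type I collagen, had 56900, 62600, 53230, 40630 and 50250 CPM in P3 cells, against 229, 505 and 158 CPM in cartilage (log2 fold change 7.47 ± 0.55, adjusted p = 1.0e-07). In both genes the outer zone cells had the 2 lowest P3 values. COL3A1, COL5A1 and COL5A2, which join type I fibrils, rose by 1.89, 2.48 and 2.93. COL3A1 had 40210, 43590, 40370, 37400 and 35830 CPM in P3 cells, against 4799, 17180 and 10090 CPM in cartilage, so that it was well detected in both groups. COL5A3 was nearly absent in cartilage, with 74.5, 91.3, 94.8, 147 and 102 CPM in P3 cells, against 0.0818, 0.181 and 0.0472 CPM in cartilage (log2 fold change 9.90 ± 1.07, adjusted p = 2.6e-06). COL12A1, a fibril-associated collagen of tendon, had 1403 ± 80.1 CPM in P3 cells and 298 ± 6.06 CPM in cartilage, and COL8A1, known from vessel walls, 646 ± 144 CPM in P3 cells and 109 ± 2.33 CPM in cartilage. The microfibrillar COL6A3 was shared, with 5458, 4281, 3814, 3589 and 3627 CPM in P3 cells, against 4813, 2864 and 4392 CPM in cartilage (log2 fold change 0.05, 95% interval -0.58 to 0.67), whereas COL6A1 rose by 1.40. COL16A1 was shared as well, and COL14A1 was not called (adjusted p = 0.109).

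Enzymes that process collagen moved in both directions. Of 20 members 5 were higher, 4 lower and 11 not called (45% called, beside 35.3% of all genes tested, with a median log2 fold change 0.36). SERPINH1, the collagen chaperone HSP47, had 1641, 1424, 1299, 1107 and 1100 CPM in P3 cells, against 903, 1128 and 1379 CPM in cartilage (95% interval of the log2 fold change -0.24 to 0.66), and LOX, which crosslinks collagen, had 1638, 1527, 1204, 1076 and 1313 CPM in P3 cells, against 751, 1976 and 1410 CPM in cartilage (-0.84 to 0.79). P4HB, a subunit of prolyl hydroxylase, was also shared. By contrast LOXL2 had 1747, 1722, 972, 910.4 and 838 CPM in P3 cells, against 63.5, 104 and 145 CPM in cartilage (log2 fold change 3.57 ± 0.36, adjusted p = 1.5e-06), and P4HA3, FKBP10, PLOD3 and ADAMTS2, the procollagen peptidase, were called higher. PLOD3 was not called without cartilage 2 (log2 fold change 0.93) or with outer zone cells alone (0.94). P4HA1, CRTAP, PCOLCE and PCOLCE2 were called lower, PCOLCE by 1.11 on the log2 scale, which was not called without cartilage 1 (-0.89).

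Basement membrane genes were mostly higher, and adhesive glycoproteins moved in both directions. Of 13 basement membrane genes 7 were higher and 1, AGRN, lower. LAMB1, a laminin chain, had 479, 436, 499, 465 and 442 CPM in P3 cells, against 7.32, 9.16 and 4.91 CPM in cartilage (log2 fold change 6.02 ± 0.41, adjusted p = 5.5e-08), NID1, which links laminin to type IV collagen, had 456, 518, 472, 352 and 489 CPM in P3 cells, against 22.4, 5.77 and 17.2 CPM in cartilage (log2 fold change 4.92 ± 0.78, adjusted p = 8.3e-05), and COL4A2 had 1044, 1469, 1597, 2504 and 1380 CPM in P3 cells, against 55.0, 37.4 and 44.9 CPM in cartilage (log2 fold change 5.13 ± 0.83, adjusted p = 1.0e-04). LAMB2 and COL15A1 were shared. Of 23 adhesive and elastic fibre genes 8 were higher and 5 lower. Thrombospondin 1, THBS1, had 14820, 14230, 10230, 11470 and 11360 CPM in P3 cells, against 1097, 941 and 865 CPM in cartilage (log2 fold change 3.68 ± 0.47, adjusted p = 1.2e-05), and fibrillin 1, FBN1, the backbone of microfibrils, had 2994, 3126, 3151, 2126 and 2895 CPM in P3 cells, against 239, 205 and 222 CPM in cartilage (log2 fold change 3.69 ± 0.27, adjusted p = 9.8e-08). Elastin, ELN, had 935, 649, 597, 435 and 387 CPM in P3 cells, against 63.0, 91.4 and 82.3 CPM in cartilage (log2 fold change 2.93 ± 0.53, adjusted p = 2.7e-04). Fibronectin, FN1, was lower in P3 cells, with 6292, 5155, 4642, 6053 and 3766 CPM in P3 cells, against 13040, 14590 and 24610 CPM in cartilage (log2 fold change -1.75 ± 0.36, adjusted p = 6.8e-04). FBLN1, a fibulin of elastic fibres, had 0.982, 0.438, 0.262, 5.90 and 1.45 CPM in P3 cells, against 289, 464 and 491 CPM in cartilage (log2 fold change -7.85 ± 0.78, adjusted p = 1.3e-06), and EFEMP1 and FBLN7 fell by 5.67 and 4.86. Tenascin C, TNC, an adhesion-modulating glycoprotein of injured and developing tissue, was shared, with 10980, 8230, 4655, 5556 and 6912 CPM in P3 cells, against 6324, 5745 and 7660 CPM in cartilage (95% interval of the log2 fold change -0.48 to 0.77). TNC averaged 1815 CPM in inner and 3822 CPM in outer zone tissue, below the means of both groups. The highest outer zone explant, at 4729 CPM, lay above the lowest P3 library, at 4655 CPM.

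**Figure D3:**
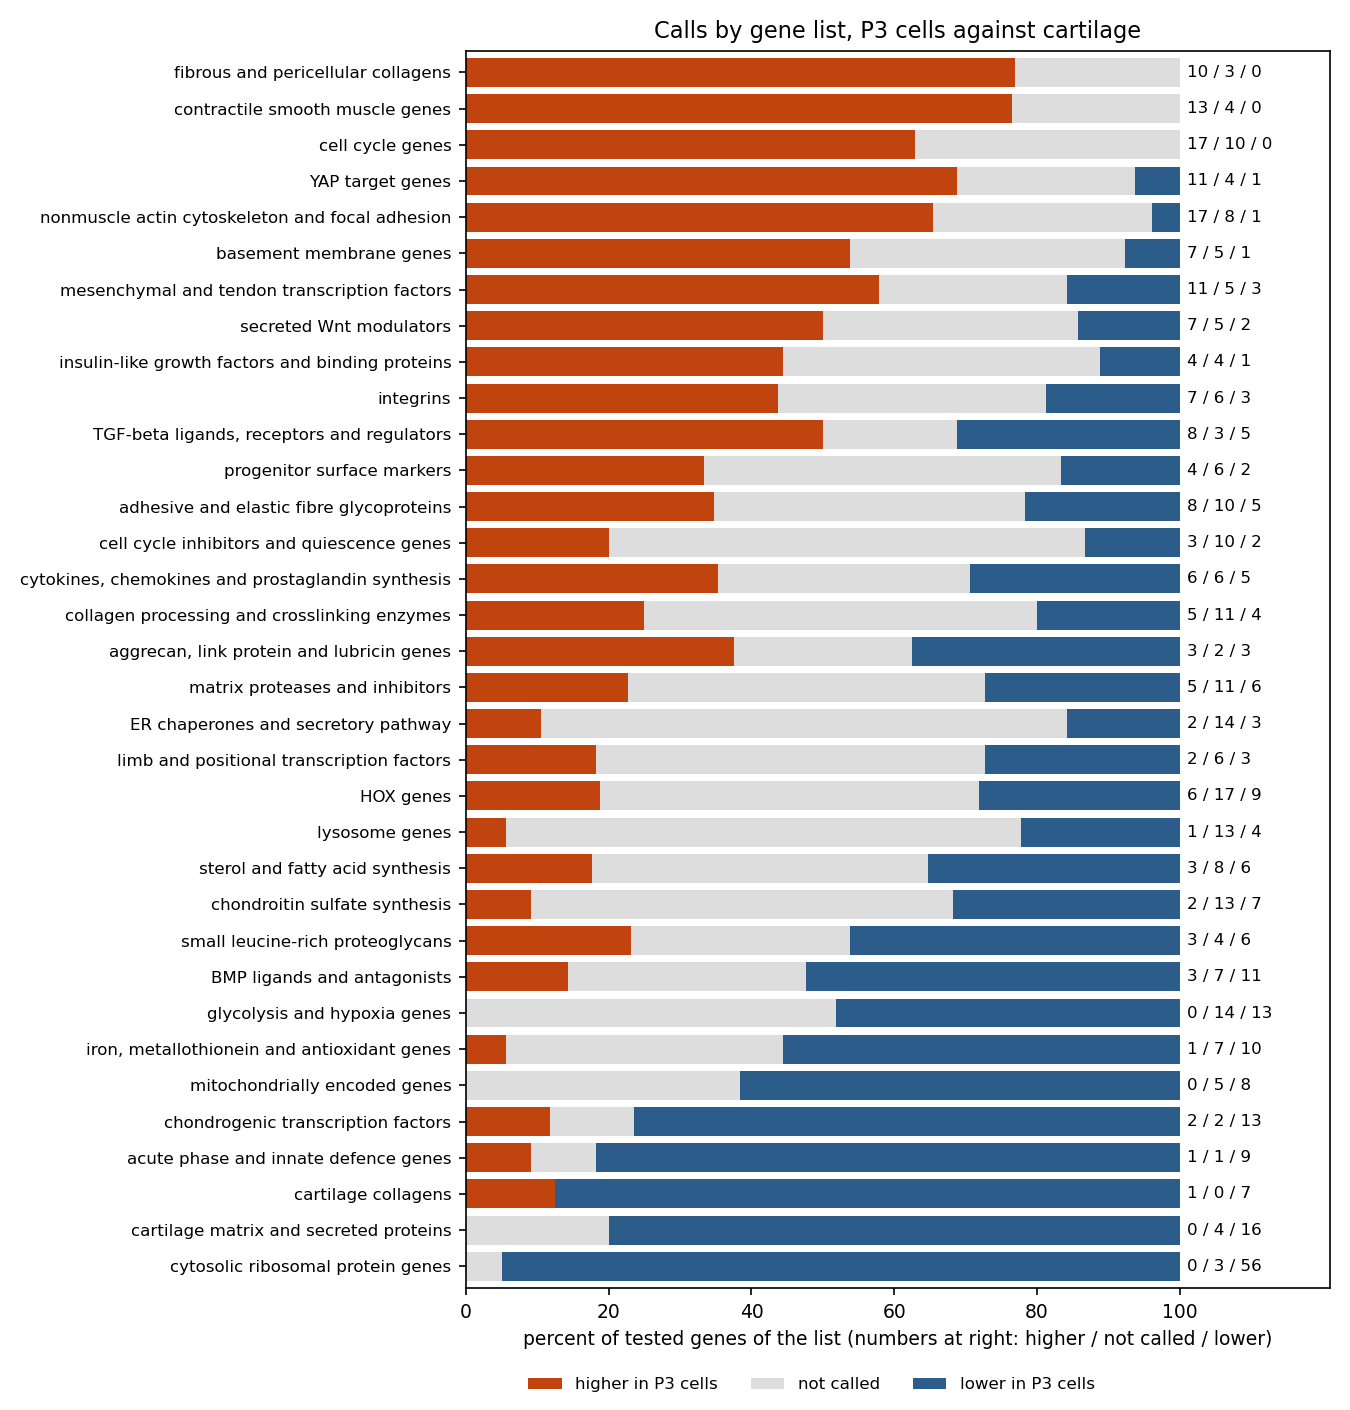
Percent of the tested genes in each list (horizontal axis, with the numbers of genes at the right) called higher in P3 cells, not called, and called lower. Cartilage matrix lists, ribosomal proteins and acute phase genes lie mostly on the lower side, and fibrous collagens, contractile genes, cytoskeleton and cell cycle genes on the higher side.

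Genes of the contractile apparatus had the highest median log2 fold change of the process lists, at 4.46. Of 17 smooth muscle contractile genes 13 were higher (76.5%, beside 18.1% of all genes tested) and none lower, and with median-of-ratios scaling 12 were higher and 1, SYNM, lower. SYNM was also called lower without inner zone cells 147 (log2 fold change -1.09) and without cartilage 3 (-1.03). ACTA2, smooth muscle alpha actin, had 4682, 3788, 3207, 5980 and 3414 CPM in P3 cells, against 6.91, 8.21 and 4.58 CPM in cartilage (log2 fold change 9.32 ± 0.96, adjusted p = 1.7e-06). TAGLN, the actin-bundling protein transgelin, had 2611, 2465, 1739, 2991 and 2097 CPM in P3 cells, against 12.2, 7.13 and 7.17 CPM in cartilage (log2 fold change 8.07 ± 0.54, adjusted p = 5.0e-08). CNN1, calponin, had 109, 117, 170.0, 292 and 156 CPM in P3 cells, against 0.204, 0.451 and 0.0943 CPM in cartilage (log2 fold change 9.38 ± 0.94, adjusted p = 3.9e-06), and MYL9, the regulatory light chain of myosin, had 373, 372, 428, 623 and 387 CPM in P3 cells, against 1.84, 1.67 and 3.92 CPM in cartilage (log2 fold change 7.47 ± 0.68, adjusted p = 6.3e-07). Outer zone cells 147 had the highest value of all 4 genes. CALD1, TPM1 and TPM2, which regulate actin filaments in many cells, rose by 6.76, 4.46 and 4.94. MYOCD, the coactivator of serum response factor in smooth muscle, was low in P3 cells, at 2.38, 2.10, 0.667, 1.02 and 2.54 CPM, and had 1 read in cartilage. MYH11, the myosin of differentiated smooth muscle, was not called, with 2.31, 3.51, 9.96, 77.6 and 21.2 CPM in P3 cells, against 1.27, 1.26 and 1.51 CPM in cartilage (adjusted p = 0.0211), but was called higher with outer zone cells alone (log2 fold change 5.19, adjusted p = 0.00389). SYNPO2 was shared. In meniscus tissue ACTA2 averaged 0.778 CPM in the inner and 19.0 CPM in the outer zone, both far below every P3 library. Markers of pericytes did not move together: NOTCH3 had 47.6, 45.2, 73.3, 129 and 36.3 CPM in P3 cells, against 12.7, 9.79 and 11 CPM in cartilage, whereas RGS5 had 0.0317, 0.0231, 0.0715, 0.0808 and 0.0217 CPM in P3 cells, against 51.8, 300.1 and 134 CPM in cartilage, and CSPG4 fell by 3.35. NOTCH3 was called (log2 fold change 2.57, adjusted p = 0.00286), but not on leaving out any 1 cartilage library (adjusted p = 0.0108 to 0.0163). The part of such cells in the contractile genes was not tested.

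The CArG box is the element bound by serum response factor in promoters of contractile genes. In the 300 bases that run from 250 before to 50 after the RefSeq gene start (Sscrofa11.1), the box occurs on either strand in 2 of the 13 contractile genes called higher (15.4%), beside 299 of 19531 promoters of protein-coding genes (1.53%). The promoter of MYL9 (chr17:39787915-39788214, plus strand) is shown because this gene carries the box and changed strongly. It reads 5′ to 3′ with the box in capitals.
MYL9: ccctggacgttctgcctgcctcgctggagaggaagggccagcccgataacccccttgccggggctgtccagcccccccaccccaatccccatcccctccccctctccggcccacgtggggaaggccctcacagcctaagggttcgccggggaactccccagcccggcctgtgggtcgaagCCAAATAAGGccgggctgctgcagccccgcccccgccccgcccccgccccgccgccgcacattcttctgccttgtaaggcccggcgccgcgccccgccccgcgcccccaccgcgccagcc
A match is a string of letters and no evidence of binding, and no match in this window says nothing of the other 11 genes.

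The general actin cytoskeleton was mostly higher too. Of 26 genes 17 were higher and 1, TES, lower (median log2 fold change 1.73). ACTB, cytoplasmic beta actin, had 3497, 2993, 2575, 4295 and 3057 CPM in P3 cells, against 573, 321 and 326 CPM in cartilage (log2 fold change 3.01 ± 0.26, adjusted p = 4.4e-07), and FLNA, filamin A, which crosslinks actin, had 5365, 5185, 4384, 6785 and 5368 CPM in P3 cells, against 438, 291 and 449.8 CPM in cartilage (log2 fold change 3.79 ± 0.32, adjusted p = 3.1e-07). VIM, vimentin, the intermediate filament protein of mesenchymal cells, had 6925, 6284, 5493, 5818 and 7128 CPM in P3 cells, against 1044, 1216 and 1756 CPM in cartilage (log2 fold change 2.24 ± 0.29, adjusted p = 1.2e-05), and MYH9, nonmuscle myosin, rose by 3.34. TES had a log2 fold change of -1.02, and was not called without inner zone cells 148 (-0.93), without cartilage 1 (adjusted p = 0.0119) or without cartilage 2 (0.0112). TPM3, CNN3 and PXN were shared. Of 16 target genes and members of the YAP pathway, which responds to cell spreading, 11 were higher and 1 lower. AMOTL2 had 815, 911, 722, 669.6 and 677 CPM in P3 cells, against 21.2, 19.5 and 19.8 CPM in cartilage (log2 fold change 5.23 ± 0.19, adjusted p = 2.6e-09), and CCN1 and CCN2, matricellular proteins, rose by 3.01 and 1.80. The coactivators themselves, YAP1 (102 to 127 CPM in P3 cells and 114 to 139.6 CPM in cartilage) and WWTR1 (43.6 to 75.7 CPM in P3 cells and 67.6 to 85.4 CPM in cartilage), were shared. AMOTL1 was the member that fell (log2 fold change -2.42 ± 0.26, adjusted p = 2.5e-06).

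**Figure D4:**
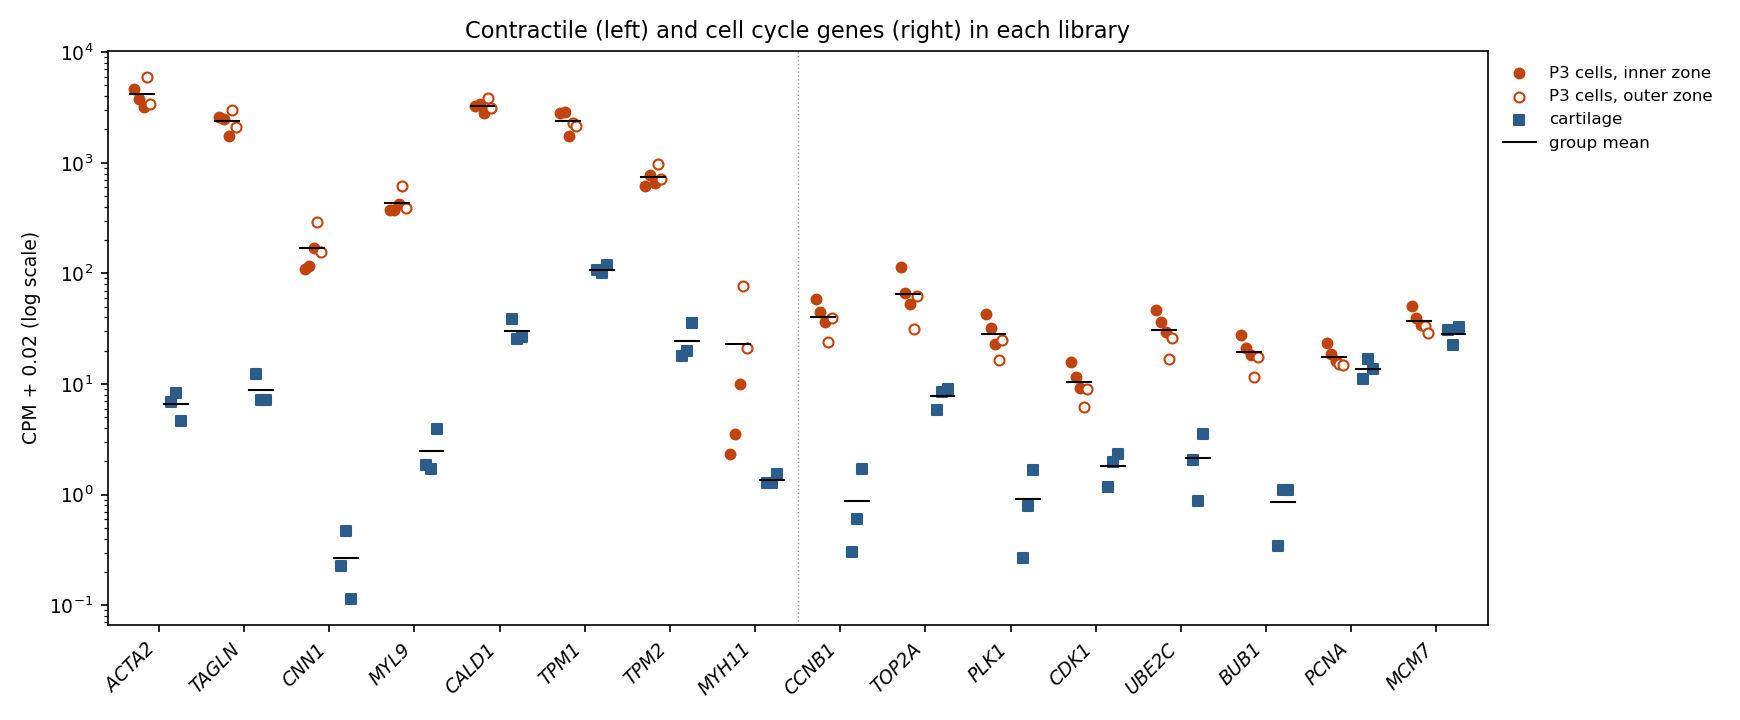
Level of 8 contractile and 8 cell cycle genes in each library (CPM plus 0.02, log axis), with P3 cells left of cartilage for each gene and bars at the group means. The groups overlap in PCNA and MCM7 only, and MYH11 spreads most among the P3 libraries.

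Integrins, the receptors that tie the cytoskeleton to the matrix, moved in both directions. Of 16 genes 7 were higher and 3 lower (62.5% called, beside 35.3% of all genes tested). ITGA10, which pairs with ITGB1 to bind type II collagen, had 24.7, 37.6, 28.0, 17.4 and 21.7 CPM in P3 cells, against 331, 242 and 351 CPM in cartilage (log2 fold change -3.57 ± 0.24, adjusted p = 5.6e-08), while ITGA11, which binds type I collagen, had 322, 305, 299, 379 and 158 CPM in P3 cells, against 7.81, 22.4 and 19.2 CPM in cartilage (log2 fold change 4.15 ± 0.48, adjusted p = 5.1e-06). ITGA8, a receptor of arginine-glycine-aspartate sites, had 517, 485, 469, 532 and 407 CPM in P3 cells, against 0.695, 0.767 and 0.708 CPM in cartilage (log2 fold change 9.37 ± 0.68, adjusted p = 3.1e-07), and the fibronectin receptor chain ITGA5 and the common chain ITGB1 rose by 2.57 and 1.74. ITGA1, ITGA3 and ITGB5 were shared. Among 12 surface markers used for mesenchymal progenitors 4 were higher and 2 lower, and without cartilage 1 or without cartilage 2 only 2 were higher. THY1 (CD90) was shared at 587 to 1009 CPM in P3 cells and 620.2 to 769 CPM in cartilage, PDGFRB rose by 1.87, and NT5E (CD73) and ENG (CD105) were lower in P3 cells. NT5E had 285, 313, 172, 98.7 and 188 CPM in P3 cells, against 993, 1348 and 1276 CPM in cartilage (log2 fold change -2.51 ± 0.30, adjusted p = 6.0e-06). ENG had 171, 140.4, 156, 252 and 150.1 CPM in P3 cells, against 513, 393 and 466 CPM in cartilage (log2 fold change -1.40 ± 0.20, adjusted p = 3.1e-05). PDGFRA was not called (adjusted p = 0.403). 

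Mitotic genes were higher in P3 cells than in cartilage, as were a few genes of DNA replication. Of 27 cell cycle genes tested 17 were higher and none lower (median log2 fold change 2.11). CCNB1, the mitotic cyclin B1, had 58.7, 44.7, 36.1, 24 and 39.4 CPM in P3 cells, against 0.286, 0.587 and 1.70 CPM in cartilage (log2 fold change 5.59 ± 0.69, adjusted p = 8.6e-06), and TOP2A, the topoisomerase that untangles chromosomes, had 115, 67.0, 52.7, 31.6 and 62.5 CPM in P3 cells, against 5.85, 8.48 and 9.01 CPM in cartilage (log2 fold change 3.08 ± 0.52, adjusted p = 1.5e-04). PLK1, KIF23, BUB1 and CENPF, which act at the kinetochore and spindle, rose by 5.00, 5.00, 4.54 and 4.45. Inner zone cells 147 had the highest and outer zone cells 147 the lowest P3 value of CCNB1, TOP2A and PLK1. Among replication genes PCNA, the sliding clamp, had 23.7, 18.7, 16.2, 15.0 and 14.9 CPM in P3 cells, against 11.2, 16.7 and 13.6 CPM in cartilage (log2 fold change 0.36, 95% interval -0.15 to 0.87), MCM7 was also shared, and MCM6 rose by 1.71. Meniscus tissue lay between the groups, with 6.91 CPM of CCNB1 in the inner and 14.3 CPM in the outer zone. Inhibitors of division and genes of quiescence were called about as often as all genes tested (33.3%, beside 35.3%). Of 15 such genes 3 were higher, 2 lower and 10 not called. CDKN1A (p21) had 81.0, 82.0, 67.4, 51.9 and 58.7 CPM in P3 cells, against 14.8, 24.8 and 32.6 CPM in cartilage (log2 fold change 1.5 ± 0.32, adjusted p = 8.6e-04). TXNIP, an inhibitor of thioredoxin and of glucose uptake, had 13.2, 8.90, 2.38, 0.943 and 3.94 CPM in P3 cells, against 148, 177 and 204 CPM in cartilage (log2 fold change -4.92 ± 0.61, adjusted p = 9.7e-06), and FOXO3 fell by 1.26. CDKN1A was not called with outer zone cells alone (adjusted p = 0.0119). CDKN1B and FOXO1 were shared.

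Mitotic genes are known to carry a CHR element (TTTGAA) near their start and CCAAT boxes before it. In the same 300 bases and on either strand, TTTGAA occurs in 12 of the 17 cell cycle genes called higher (70.6%), beside 14% of 19531 promoters, CCAAT in 14 (82.4%, beside 35.4%), and both in 9 (52.9%, beside 5.53%). The promoters printed here are those of CDK1 (chr14:64233695-64233994, plus strand) and UBE2C (chr17:48018153-48018452, plus strand), which hold both near the gene start, 5′ to 3′ with the letters of either motif in capitals (ATTGG and TTCAAA are the same motifs on the opposite strand).
CDK1: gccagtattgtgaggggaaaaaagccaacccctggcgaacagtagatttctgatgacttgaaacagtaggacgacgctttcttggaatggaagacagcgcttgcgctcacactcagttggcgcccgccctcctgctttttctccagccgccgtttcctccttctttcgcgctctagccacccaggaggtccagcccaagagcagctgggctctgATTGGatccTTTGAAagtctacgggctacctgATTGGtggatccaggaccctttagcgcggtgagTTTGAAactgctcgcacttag
UBE2C: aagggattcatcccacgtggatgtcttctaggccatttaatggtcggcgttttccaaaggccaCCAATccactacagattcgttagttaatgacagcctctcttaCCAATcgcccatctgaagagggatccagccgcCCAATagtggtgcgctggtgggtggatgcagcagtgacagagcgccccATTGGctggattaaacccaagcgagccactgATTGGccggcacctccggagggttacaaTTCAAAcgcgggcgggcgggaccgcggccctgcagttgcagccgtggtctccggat
CDK1 had 15.9, 11.4, 9.25, 6.14 and 8.91 CPM in P3 cells, against 1.15, 1.94 and 2.31 CPM in cartilage, and UBE2C had 47.0, 36.0, 29.4, 16.7 and 26.3 CPM in P3 cells, against 2.04, 0.857 and 3.49 CPM in cartilage. The letters describe the promoters only.

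Secreted regulators of Wnt signalling moved in both directions. Of 14 genes 7 were higher and 2 lower (64.3% called, beside 35.3% of all genes tested). SFRP2, a decoy receptor of Wnt proteins known from fibroblasts, had 127, 272, 378, 2953 and 1168 CPM in P3 cells, against 1.64, 3.25 and 1.23 CPM in cartilage (log2 fold change 8.91 ± 1.31, adjusted p = 4.5e-05). The 2 outer zone libraries were well above the 3 inner zone ones. DKK3 had 671, 692, 646, 440.4 and 455 CPM in P3 cells, against 1.19, 4.83 and 1.37 CPM in cartilage (log2 fold change 7.89 ± 0.66, adjusted p = 3.0e-07), and SFRP4 rose by 8.38. FRZB, the decoy receptor of cartilage, had 2.37 ± 0.942 CPM in P3 cells and 117 ± 96.4 CPM in cartilage (log2 fold change -5.62 ± 0.81, adjusted p = 3.7e-05), and RSPO3, which amplifies Wnt signals, had 0.728, 0.807, 0.667, 1.05 and 1.28 CPM in P3 cells, against 51.7, 26.1 and 29.7 CPM in cartilage (log2 fold change -5.29 ± 0.71, adjusted p = 1.9e-05). SFRP1 was shared.

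Among BMP ligands, which drive cartilage formation, and their antagonists, more genes were lower than higher. Of 21 tested 11 were lower (10 on leaving out any 1 library) and 3 higher (median log2 fold change -1.52). BMP2 had 1.84, 1.96, 0.858, 1.83 and 1.56 CPM in P3 cells, against 91.8, 34.8 and 86.4 CPM in cartilage (log2 fold change -5.46 ± 0.75, adjusted p = 2.5e-05), and GDF5, the ligand of joint formation, had 2 reads in all P3 cells together and 32.4, 24 and 46.2 CPM in cartilage. The GDF5 ratio of cartilage to P3 cells was 3398, with a 95% counting interval of 939.6 to 28080. CHRDL2, an antagonist known from superficial cartilage, had 0.253, 0.323, 1.03, 1.13 and 0.347 CPM in P3 cells, against 208, 55.1 and 198 CPM in cartilage (log2 fold change -7.95 ± 1.00, adjusted p = 1.0e-05), and BAMBI, a pseudoreceptor, fell by 3.48. FST, follistatin, had 2.03, 2.81, 1.81, 2.07 and 3.06 CPM in P3 cells and no read in cartilage, at least 54.2-fold higher, and FSTL1, a secreted follistatin-like protein, had 1836, 1470, 1410, 1495 and 1421 CPM in P3 cells, against 269, 647 and 358 CPM in cartilage (log2 fold change 1.85 ± 0.26, adjusted p = 2.6e-05). GREM1, another antagonist, overlapped between the groups and was not called, with 636 ± 189 CPM in P3 cells and 1060 ± 395 CPM in cartilage.

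TGF-beta genes moved in both directions. Of the ligands, TGFB3 had 260.3, 229, 315, 204 and 182 CPM in P3 cells, against 32.0, 50.7 and 48.5 CPM in cartilage (log2 fold change 2.44 ± 0.26, adjusted p = 2.7e-06), TGFB1 had 7.12, 6.51, 10.5, 7.06 and 6.20 CPM in P3 cells, against 37.9, 22.7 and 41.7 CPM in cartilage (log2 fold change -2.19 ± 0.21, adjusted p = 9.5e-07), and TGFB2 was shared. Activin chains rose, INHBA with 255, 255, 211, 201 and 164 CPM in P3 cells, against 9.49, 14 and 34.6 CPM in cartilage (log2 fold change 3.49 ± 0.42, adjusted p = 6.5e-06) and INHBB by 8.06 on the log2 scale. The receptors TGFBR2 and TGFBR3 fell by 2.13 and 3.35, and TGFBR1 was shared. The latent binding proteins LTBP1 and LTBP3 fell by 1.40 and 2.67, and LTBP2 rose by 2.12. SMAD7, a known target gene and inhibitor of the pathway, had 33.6, 34.8, 44.1, 49.7 and 46.7 CPM in P3 cells, against 9.12, 6.14 and 7.55 CPM in cartilage (log2 fold change 2.46 ± 0.19, adjusted p = 1.7e-07). Of all 16 genes 8 were higher and 5 lower. Among 9 genes of the insulin-like growth factor system 4 were higher and 1, IGFBP6, lower (55.6% called, beside 35.3% of all genes tested). Without cartilage 3 IGF1 was called lower as well. IGFBP2, a binding protein, had 1230, 433, 335, 2060 and 925 CPM in P3 cells, against 1.35, 2.57 and 1.56 CPM in cartilage (log2 fold change 9.09 ± 0.85, adjusted p = 7.8e-07), and IGFBP5 had 2310, 3197, 1825, 1875 and 3290 CPM in P3 cells, against 461, 627 and 412 CPM in cartilage (log2 fold change 2.32 ± 0.37, adjusted p = 9.3e-05).

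Acute phase and defence genes that cartilage explants expressed strongly were far lower in P3 cells. Of 11 genes 9 were lower and 1, PTX3, higher (median log2 fold change -3.57), and the list summed to 604 to 1470 CPM in P3 cells, against 56330 to 76630 CPM in cartilage. The serum amyloid A gene SAA3 had 256, 175, 50.6, 115 and 81.2 CPM in P3 cells, against 25230, 38750 and 20740 CPM in cartilage (log2 fold change -7.70 ± 0.58, adjusted p = 1.1e-07), and LCN2, lipocalin 2, which binds bacterial siderophores, had 14.4, 8.19, 68.4, 18.9 and 14.2 CPM in P3 cells, against 13510, 9555 and 11870 CPM in cartilage (log2 fold change -8.87 ± 0.67, adjusted p = 1.2e-07). CLU, the extracellular chaperone clusterin, had 605, 368, 229, 714 and 444 CPM in P3 cells, against 26310, 25530 and 21020 CPM in cartilage (log2 fold change -5.69 ± 0.34, adjusted p = 2.6e-08). TNFAIP6, induced by inflammatory cytokines, was not called (adjusted p = 0.0128), but was called higher without cartilage 3 (log2 fold change 1.69, adjusted p = 0.00133) and by DESeq2 (1.08, adjusted p = 0.00420). Serum amyloid A genes are near-identical copies, so reads that fit more than a single copy may be missing from their counts. The meniscus explants, which had the same 3 days in culture, averaged 56120 CPM of SAA3 in the inner and 78540 CPM in the outer zone.

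Iron storage and antioxidant genes were mostly lower as well. Of 18 genes 10 were lower and 1 higher. FTH1, the heavy chain of ferritin, had 2393, 2269, 1881, 2352 and 2320 CPM in P3 cells, against 26930, 21900 and 22580 CPM in cartilage (log2 fold change -3.41 ± 0.21, adjusted p = 2.8e-08). FTL, the light chain, had 920.3, 834, 1065, 1855 and 1414 CPM in P3 cells, against 8527, 8679 and 9816 CPM in cartilage (log2 fold change -2.89 ± 0.27, adjusted p = 8.0e-07). SOD2, the mitochondrial superoxide dismutase, had 259, 183, 99.2, 248 and 218 CPM in P3 cells, against 7284, 3640 and 4671 CPM in cartilage (log2 fold change -4.69 ± 0.40, adjusted p = 3.5e-07). SLC40A1, the iron exporter ferroportin, was the gene that rose (log2 fold change 2.30 ± 0.25, adjusted p = 2.8e-06). CAT, GPX4, PRDX1 and NQO1 were shared. Ferritin genes have processed copies in mammals, so their counts are uncertain and may miss reads that fit a copy as well.

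Chemokines, proteases and their inhibitors moved in both directions. Of 17 cytokine and prostaglandin genes 6 were higher and 5 lower, and without cartilage 2 only 3 were higher. CCL2, which attracts monocytes, had 31.7, 59.7, 25.4, 101 and 83.5 CPM in P3 cells, against 0.0409, 0 and 0.189 CPM in cartilage (log2 fold change 9.60 ± 1.17, adjusted p = 8.2e-06), and PTGS2, the inducible cyclooxygenase, had 46.2, 47.8, 33.2, 26.2 and 35.9 CPM in P3 cells, against 0.818, 0.451 and 0.425 CPM in cartilage (log2 fold change 6.04 ± 0.62, adjusted p = 1.6e-06). CCL20, which attracts lymphocytes, had 0.154 ± 0.0769 CPM in P3 cells and 28.7 ± 8.63 CPM in cartilage (log2 fold change -7.47 ± 0.58, adjusted p = 1.6e-07). Of 22 proteases and inhibitors 5 were higher and 6 lower. MMP14, a membrane-bound collagenase, had 931, 1032, 1060, 1595 and 1182 CPM in P3 cells, against 389.6, 205 and 349 CPM in cartilage (log2 fold change 1.88 ± 0.33, adjusted p = 2.1e-04), CTSD, a lysosomal protease, had 941, 947, 734, 1102 and 772 CPM in P3 cells, against 6370, 2878 and 4487 CPM in cartilage (log2 fold change -2.35 ± 0.25, adjusted p = 2.5e-06), and TIMP3, a matrix-bound inhibitor, had 251, 224, 95.2, 262 and 249 CPM in P3 cells, against 1404, 1167 and 1804 CPM in cartilage (log2 fold change -2.75 ± 0.37, adjusted p = 2.0e-05). MMP13, the collagenase of cartilage, varied within both groups, with 1.77, 2.19, 5.82, 39.7 and 13.1 CPM in P3 cells, against 379, 26.8 and 22.8 CPM in cartilage, and was not called (adjusted p = 0.0118), although it was called lower without cartilage 2 (0.00874), without cartilage 3 (0.00810) and without outer zone cells 147 (0.00266).

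Glycolytic and hypoxia-responsive genes were lower in P3 cells or not called. Cartilage has no vessels, and its cells live at low oxygen in the joint, but the part of oxygen in these levels was not tested. Of 27 genes 13 were lower (48.1% called, beside 35.3% of all genes tested, median log2 fold change -1.02). The list summed to 5931 to 6787 CPM in P3 cells and to 13280 to 19570 CPM in cartilage. In meniscus explants it summed to 12600 to 16590 CPM in the inner and to 12260 to 14190 CPM in the outer zone. NDUFA4L2, a hypoxia-induced mitochondrial protein, had 2.88, 2.86, 3.74, 1.70 and 1.24 CPM in P3 cells, against 829, 1090 and 1682 CPM in cartilage (log2 fold change -8.92 ± 0.48, adjusted p = 1.3e-08). ADM and BNIP3, other hypoxia-induced genes, fell by 3.79 and 2.98, and VEGFA was not called (adjusted p = 0.117). GAPDH, often used as a reference gene, had 1217, 1016, 1045, 977 and 976 CPM in P3 cells, against 3398, 3504 and 5601 CPM in cartilage (log2 fold change -1.99 ± 0.19, adjusted p = 8.5e-07). PKM, which completes glycolysis, was shared.

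Cytosolic ribosomal protein genes were lower almost throughout. Of 59 tested 56 were lower and none higher, with log2 fold changes from -2.48 to -0.44 and a median of -1.85. RPS2 had 1871, 1860, 2026, 1872 and 1966 CPM in P3 cells, against 5873, 6334 and 7697 CPM in cartilage (log2 fold change -1.79 ± 0.19, adjusted p = 1.8e-06). RPL3 had a log2 fold change of -0.96, short of the 2-fold threshold, and RPSA was shared. With median-of-ratios scaling the median was -1.89 and 57 genes were lower. Ribosomal protein genes have many processed copies, so reads that fit both a gene and a copy may be missing from the counts. Of 13 genes encoded by mitochondrial DNA 8 were lower, none higher, and COX1, a subunit of cytochrome oxidase, was shared at 3935 to 7103 CPM in P3 cells and 4047 to 5541 CPM in cartilage. ND1, counted among the 8, was not called without cartilage 3 (adjusted p = 0.0359) or inner zone cells 149 (0.0110).

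Homeobox genes of limb position were detected in both groups. The 5′ genes of the A and D clusters pattern the hind limb, and HOXA9, HOXA10, HOXA11, HOXA13, HOXD9, HOXD10 and HOXD11 were found in all 8 libraries. Of 32 HOX genes tested 9 were lower, 6 higher and 17 were not called (46.9% called, beside 35.3% of all genes tested, median log2 fold change 0.09). HOXA11 had 18.1, 18.1, 18.2, 18.6 and 17.2 CPM in P3 cells, against 32.6, 40.8 and 49.4 CPM in cartilage (log2 fold change -1.18 ± 0.16, adjusted p = 1.8e-05), and HOXD8 had 31.2, 34.2, 30.6, 30.2 and 28.8 CPM in P3 cells, against 71.6, 99.1 and 81.0 CPM in cartilage (log2 fold change -1.44 ± 0.13, adjusted p = 6.3e-07). HOXA5 and HOXA7 were shared. HOXD13, the most 5′ gene of its cluster, had 1.01, 1.08, 0.310, 0.458 and 1.08 CPM in P3 cells and no read in cartilage, at least 18.0-fold higher, and meniscus tissue averaged 0.746 CPM in the inner and 0.811 CPM in the outer zone. The other genes called higher, HOXB2, HOXC5, HOXC6, HOXC13 and HOXD4, averaged under 2 CPM in P3 cells. HOXD10 was counted among the 9 lower genes, but was not called on leaving out any 1 of 5 libraries (adjusted p = 0.0158 to 0.0427), HOXD9 was not called without cartilage 1 (log2 fold change -0.97) or outer zone cells 147 (-0.96), and HOXC6 was not called without cartilage 2 (adjusted p = 0.0107) or cartilage 3 (0.0142). PITX1, the hind limb factor, had 69.0, 64.6, 47.2, 49.4 and 46.5 CPM in P3 cells, against 145, 159 and 168 CPM in cartilage (log2 fold change -1.51 ± 0.20, adjusted p = 1.4e-05).

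Beside the 3775 shared genes, 1950 genes at 10 CPM or more in both groups were called and 1166 were neither called nor shared. The 10 shared genes with the highest CPM, by the mean over the 8 libraries and without regard to gene length, were TNC, COX1, COL6A3, AEBP1, PKM, P4HB, LOX, SERPINH1, HSP90AB1 and RPSA. AEBP1, a collagen-binding secreted protein, had 2540, 2699, 3027, 3403 and 2692 CPM in P3 cells, against 2560, 1935 and 3365 CPM in cartilage (log2 fold change 0.13 ± 0.27, 95% interval -0.46 to 0.72). Meniscus tissue had 179 CPM of AEBP1 in the inner and 754 CPM in the outer zone, below all 8 libraries. SERPINH1 was likewise at 419 and 355 CPM there. Among genes of the endoplasmic reticulum and secretory pathway 9 of 19 were shared and 26.3% called, beside 35.3% called of all genes tested. Of all genes tested 24.0% were shared, and 54.8% of those at 10 CPM or more in both groups. The 9 included CALR (638 to 1022 CPM in P3 cells and 707 to 1022 CPM in cartilage), a lectin chaperone. SEC61A1 (286 to 388 CPM in P3 cells and 298 to 393 CPM in cartilage), the translocation channel, was another. HSPA5, the main chaperone of that compartment, was not called (log2 fold change 0.73 ± 0.20, adjusted p = 0.00628).

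**Figure D5:**
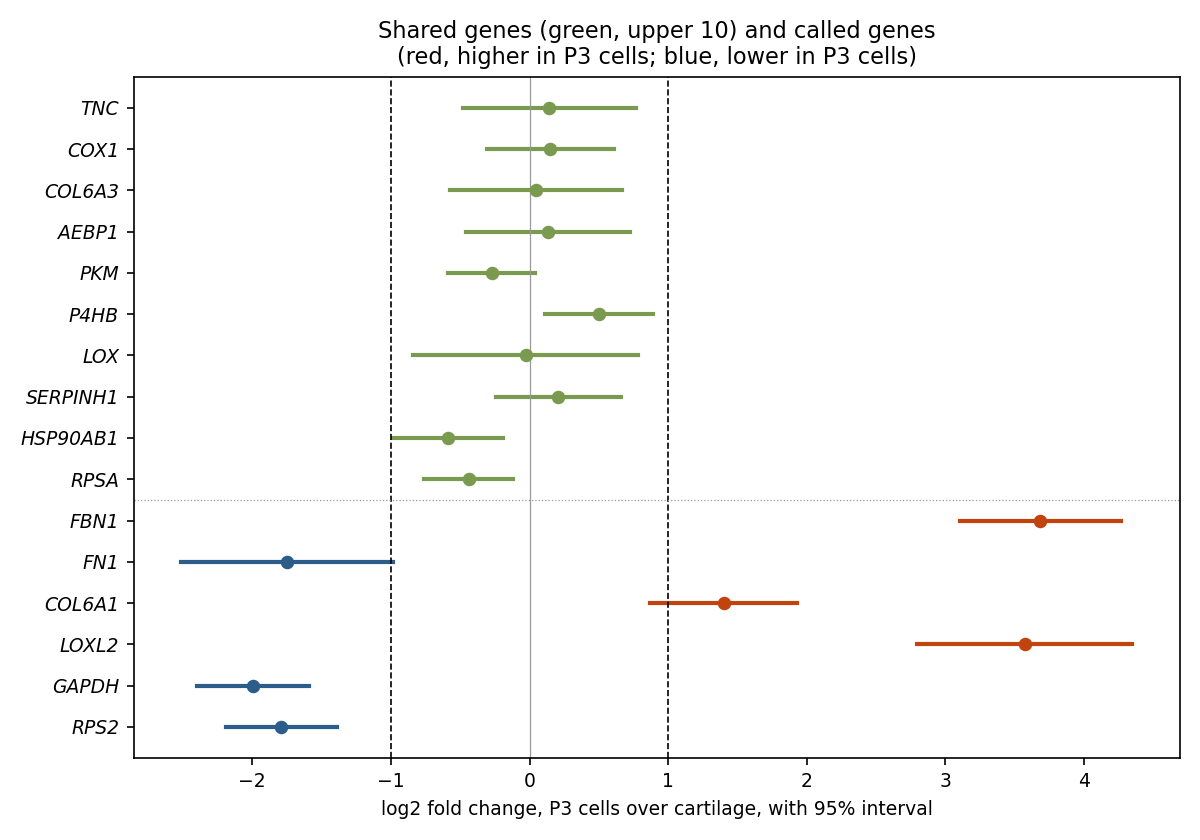
Log2 fold change of P3 cells over cartilage (points) with its 95% interval (lines) for the 10 shared genes with the highest levels, above 6 genes of related function that were called. All 10 shared intervals lie between the dashed bounds at -1 and 1.

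P3 libraries of both zones were pooled, and most genes varied little among them: the median coefficient of variation over the 6891 genes at 10 CPM or more in both groups was 9.76% in P3 cells and 13.4% in cartilage. Between inner and outer zone P3 cells edgeR called 0 of 15707 genes (smallest adjusted p = 0.246), 505 had an unadjusted p under 0.05, and DESeq2 called 10. These fits set 3 inner against 2 outer zone libraries and did not pair the numbers 147 and 148 that both zones hold. The lack of calls therefore does not show that cells of the zones are alike. Genes with a wide range among P3 libraries included SFRP2, MFAP5 and MYH11, all highest in outer zone cells 147. SNTB1 and PHLDA1 were among the genes that the study also measured by PCR. SNTB1, a syntrophin of the membrane cytoskeleton, had 0.443, 0.738, 1.05, 0.431 and 1.13 CPM in P3 cells, against 0, 0.271 and 0 CPM in cartilage, and its call (log2 fold change 3.06 ± 0.91, adjusted p = 0.00958) was lost without cartilage 1 (adjusted p = 0.0462), without cartilage 3 (0.0413) and without any of 3 P3 libraries (0.0145 to 0.0191). PHLDA1, which is induced by growth factors, had 23.4, 25.5, 45.3, 27.0 and 46.7 CPM in P3 cells, against 7.48, 7.44 and 5.90 CPM in cartilage (log2 fold change 2.27 ± 0.29, adjusted p = 1.1e-05).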

How the data were processed

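Per the authors' methods, libraries came from a stranded mRNA kit, and reads were trimmed with Trim Galore and cutadapt and aligned with STAR to Sscrofa11.1. The paper limited its further analysis to what mapped to a single place in the genome. The deposited table holds raw counts per gene from HTSeq, 1 column per library. Tool versions and the strand setting of the counting are not given in the sources used here, so reads of a gene and of an overlapping antisense gene may not be told apart. Tables of counts normalized with DESeq2 by the authors were not used.

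Genes with at least 10 reads over the 14 libraries were fitted with edgeR 4.0.16 in R 4.3.3 (limma 3.58.1), with TMM scaling and 4 groups: P3 cells of both zones, cartilage, and each explant zone. Counting floors (3 reads) and counting intervals cover counting error only, and 3 reads are 0.0650 to 0.0950 CPM in a P3 library and 0.123 to 0.141 CPM in a cartilage library. The study states the number of samples in each group and that the cells were not matched to the tissues by donor. It also states that the explants of a zone came from different menisci. Whether each cell or cartilage library came from its own animal is not stated. The p-values therefore cover the spread between these libraries alone, which in cells and cartilage may be technical. The fit was tested on simulated counts. Alternatives were other scaling (median of ratios), DESeq2 1.42.0, other read minimums, only the 8 libraries, the zones apart, a test against a 2-fold change, a narrower bound for shared genes, and leaving out each library.

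The comparison, the 34 gene lists and the 10 lists of cell markers were chosen with earlier results of these data known. Of 687 distinct genes in the 34 lists, 643 had a row in the table and 629 were tested. Named by rule were, for each list, up to 6 called and 3 uncalled members with the highest CPM, the 10 largest changes each way, the 10 shared genes with the highest CPM, and genes the study measured by PCR. A further 82 of the 278 genes named were chosen after their values were seen. Promoter sequences are from RefSeq (Sscrofa11.1).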

Additional observations from a re-analysis of the deposited data

Results flagged for a closer look

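Among the 5 P3 libraries, 1 lay far from the other 4 for 30 of 276 genes named here (10.9%). The test took the gap to the nearest library as a share of the whole range. In 25 of the 30 that library was the highest and in 5 the lowest. The share expected by chance is not known here, since the test assumes normal values and always marks a gene with reads in a single library. Some of the genes were also chosen after their values were seen. The 3 cartilage libraries were too few to test. Outer zone cells 147 stood apart most often, for 11 genes. In these cells ENG was 251.7 CPM, FBLN1 5.90 CPM, ITGB5 368.7 CPM, MFAP5 49.8 CPM, MYH11 77.6 CPM, MYL9 622.8 CPM, PDGFRB 720.3 CPM, RBPMS 73.9 CPM, RTN4RL2 36.6 CPM and SREBF2 224.6 CPM, each above the other P3 libraries, and FBN1 was 2126 CPM, below them. Contractile MYL9 and MYH11, pericyte-expressed PDGFRB and the microfibril gene MFAP5 were thus highest in the same library.

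Inner zone cells 149 had the highest value of COL9A3 (8.70 CPM), IRX3 (14.7 CPM), LCN2 (68.4 CPM) and TGFB1 (10.5 CPM) and the lowest of FTH1 (1881 CPM), TGFBR2 (90.7 CPM) and TIMP3 (95.2 CPM). Inner zone cells 147 had the highest of FSTL1 (1836 CPM), GAPDH (1217 CPM) and PROM2 (0.0317 CPM), inner zone cells 148 of COL11A2 (0.508 CPM), GDF5 (0.0461 CPM), KY (0.0231 CPM) and SNORC (0.807 CPM), and outer zone cells 148 of PRRX1 (1616 CPM), ADIPOQ and CD93 (both 0.0217 CPM) and CDH5 (0.0650 CPM), while RUNX1 was lowest there (88.7 CPM). The values of ADIPOQ, CD93, CDH5, GDF5, KY and PROM2 rest on 1 to 3 reads. All of these genes except CD93, CDH5, ITGB5, MYH11 and RUNX1 were called in the comparison with cartilage.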

How the results depend on the processing

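The count of genes called moved most when the change itself was tested against 2-fold, which called 3370 genes (1696 higher in P3 cells and 1674 lower), and with a bound of 1.5-fold the shared genes numbered 1696. Leaving out 1 library gave 5039 to 5376 called genes, 2531 to 2789 of them higher and 2459 to 2587 lower, and 3507 to 3710 shared genes. All other settings called 4872 to 5768 genes, and moved the median of all genes by under 0.1 on the log2 scale. Of 400 genes followed, none changed direction while called in any setting. Calls lost numbered 53 of them in the test against 2-fold, 18 with outer zone cells alone, 16 without cartilage 1 and at most 14 in the other settings, and calls lost on leaving out 1 library are given beside the genes described. No paired analysis was possible because the cells are numbered 147 to 149 and the cartilage 1 to 3, so that the groups share no number.

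The 3 cartilage libraries held fewer reads than the P3 libraries, so that genes under 0.123 to 0.141 CPM in cartilage could not be told from absent. The spread among cartilage libraries was wide for single genes such as MATN1, FRZB and MMP13. Confounding of tissue, culture and extraction is a limit of the design that no setting changes.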

Other observations

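Genes of sterol and fatty acid synthesis, which make cholesterol and the fatty acids of membranes, moved in both directions. Of 17 tested 6 were lower in P3 cells, 3 higher and 7 shared (52.9% called, beside 35.3% of all genes tested, median log2 fold change -0.29). SREBF1 and SREBF2, the transcription factors that switch these genes on, fell by 1.90 and 1.16 on the log2 scale. SREBF1 had 62.2, 76.6, 81.1, 102 and 85.2 CPM in P3 cells, against 218, 283 and 411 CPM in cartilage. ACACA, which makes malonyl-CoA for fatty acid chains, had 136 ± 13.3 CPM in P3 cells and 44.7 ± 7.92 CPM in cartilage (log2 fold change 1.60 ± 0.17, adjusted p = 2.9e-06). HMGCS1, an early enzyme of the sterol pathway, was shared, with 56.9 to 96.6 CPM in P3 cells and 73.8 to 100.1 CPM in cartilage, while explants averaged 363 CPM in the inner and 373 CPM in the outer zone of the meniscus. Of 18 lysosome genes 4 were lower and 1, NPC1, higher (27.8% called, beside 35.3% of all genes tested), and 6 were shared. LAMP2, a protein of the lysosomal membrane, had 302, 268, 258, 333 and 321 CPM in P3 cells, against 765, 942 and 752 CPM in cartilage (log2 fold change -1.47 ± 0.16, adjusted p = 2.2e-06).

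Among limb transcription factors other than HOX genes, TBX5, known for its role in the fore limb, had 11.4, 14.1, 7.82, 10.8 and 10.1 CPM in P3 cells, against 32.0, 39.4 and 51.3 CPM in cartilage (log2 fold change -1.92 ± 0.28, adjusted p = 4.6e-05), and IRX3, an Iroquois homeobox factor, had 6.02, 6.18, 14.7, 7.95 and 7.37 CPM in P3 cells, against 0.286, 0.316 and 0.519 CPM in cartilage (log2 fold change 4.49 ± 0.89, adjusted p = 5.4e-04). The IRX3 values of explants averaged 0.172 CPM in the inner and 0.470 CPM in the outer zone. Among adipocyte markers CIDEC, a protein of lipid droplets, had 0, 0.0231, 0.0238, 0.0269 and 0.0433 CPM in P3 cells, against 15.4, 29.1 and 25.6 CPM in cartilage and 16.3 CPM on average in inner zone explants, while ADIPOQ, the defining adipokine, averaged 0.00433 CPM in P3 cells and 0.362 CPM in cartilage, and its call (adjusted p = 0.00118) was lost without cartilage 2 (adjusted p = 0.0136) and with outer zone cells alone (adjusted p = 0.0393). Both chains of type I collagen were high in P3 cells, but in inner zone explants COL1A1 averaged 9.55 CPM and COL1A2 1397 CPM.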
